A study of Mus musculus with 14 samples.

Results

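The P450 genes of families 2 and 4 outside the Cyp2a, Cyp2c and Cyp2e subfamilies were examined in the liver of TALLYHO mice treated with indole or vehicle. Members were all protein-coding genes of the count table whose symbol begins with Cyp2 or Cyp4 and a letter, without those 3 subfamilies, and 48 of the 21936 protein-coding genes met this rule. These 48 are part of 69 family 2 and 4 genes in the table. A read was counted for 39 of them in at least 1 mouse, 28 had enough reads to be tested, 11 had reads but too few to be tested, and 9 had none.

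The study asked how indole, a product of tryptophan breakdown by gut bacteria, acts on glucose control in TALLYHO/JnG mice, an inbred polygenic model in which males become obese and diabetic. Male mice aged 8–12 weeks were gavaged with 20 mg/kg indole (n=7) or with water as vehicle (n=7), with 2 doses per day for 7 days. All 14 mice also underwent metabolic tests with further doses before the right liver lobe was frozen, so the values are those of a liver after testing and not of an undisturbed one. PolyA RNA was sequenced, and the total count on genes lay between 15197498 and 21060376 in each mouse. Every mouse in this strain carries the same diabetes-prone background, and no non-diabetic strain was analysed here.

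Cytochrome P450 enzymes are membrane proteins of the endoplasmic reticulum that hold a haem group through a cysteine and insert an oxygen atom into their substrate, with electrons passed on from P450 oxidoreductase. In the liver, family 2 enzymes mainly oxidise drugs, steroids and arachidonic acid, and family 4 enzymes hydroxylate the far end of fatty acids and eicosanoids. Several of these genes are known as readouts of nuclear receptors, with *Cyp2b10* responding to the constitutive androstane receptor (CAR) and *Cyp4a10* and *Cyp4a14* to the fatty acid receptor PPARA. Others are known to differ between the sexes through the rhythm of growth hormone, with *Cyp2b9* and *Cyp2b13* high in females and *Cyp4a12a*, *Cyp4a12b* and *Cyp2d9* high in males.

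The Cyp2b genes are shown first, because *Cyp2b9* varied most between mice. The 250 bases before the start of *Cyp2b9*, *Cyp2b13* and *Cyp2b10* are given 5′ to 3′ on the plus strand, at chr7:26173159-26173408, chr7:26061245-26061494 and chr7:25897408-25897657 of GRCm38. They are RefSeq sequences of the C57BL/6J reference and not of TALLYHO. Capitals mark AGGTCA, the half-site of many nuclear receptors.
Cyp2b9: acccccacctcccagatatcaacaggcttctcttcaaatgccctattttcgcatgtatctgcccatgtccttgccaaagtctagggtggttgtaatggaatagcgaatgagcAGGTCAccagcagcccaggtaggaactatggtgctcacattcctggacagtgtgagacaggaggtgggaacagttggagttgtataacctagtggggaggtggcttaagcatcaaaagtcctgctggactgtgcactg
Cyp2b13: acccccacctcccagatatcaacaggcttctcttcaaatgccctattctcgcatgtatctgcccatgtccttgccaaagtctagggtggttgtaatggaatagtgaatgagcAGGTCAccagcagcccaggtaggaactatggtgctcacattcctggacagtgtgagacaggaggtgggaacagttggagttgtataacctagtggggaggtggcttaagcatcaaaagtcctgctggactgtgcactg
Cyp2b10: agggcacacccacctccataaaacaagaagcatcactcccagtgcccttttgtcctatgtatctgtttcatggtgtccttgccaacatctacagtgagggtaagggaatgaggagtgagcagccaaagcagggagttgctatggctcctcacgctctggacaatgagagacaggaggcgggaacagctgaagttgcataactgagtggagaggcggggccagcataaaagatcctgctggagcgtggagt
The *Cyp2b9* and *Cyp2b13* stretches were identical at 248 of 250 bases (99.2%). *Cyp2b10* matched *Cyp2b9* at 177 of 240 aligned bases (73.8%). AGGTCA, searched on both strands, stood once in *Cyp2b9* and once in *Cyp2b13* and was not found in this window of *Cyp2b10*. It was present in 4607 of the 32851 promoters of the same length, or 14%. Counted per gene, with a match in any of its promoters, it was present in 8 of the 35 members that had a promoter entry (40 promoters). *Cyp2b9* and *Cyp2b13* are among these 8, and the 2 shares are of unlike units. TTCNNNGAA, the palindrome known for STAT5, was not found in the 3 windows shown, and was present in 7.02% of all promoters. In spite of the near-identical 250 bases, reads differed widely between the pair, with 10298 on *Cyp2b9* and 181 on *Cyp2b13* over the 14 mice.

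The coding stretch around the haem-binding cysteine is what these genes share beyond their names. A stretch of 30 bases that reads as the P450 haem signature was found in 47 of 48 members in GENCODE transcripts, the exception being *Cyp2s1*, which did not match the pattern used. Capitals mark the cysteine codon.
Cyp2b9: ttctccacaggaaagcgcattTGTcttggt
Cyp2b10: ttctcaacaggaaagcgcattTGTcttggt
Cyp2d9: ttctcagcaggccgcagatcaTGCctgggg
Cyp2f2: ttttcggctggacgtcgactgTGTctggga
Cyp4a10: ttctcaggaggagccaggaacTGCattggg
Cyp4a12a: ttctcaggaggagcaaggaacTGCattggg
Cyp4a14: ttctcaggaggatcaaggaacTGCattggg
An intron interrupted the stretch in all 47. In all 27 family 2 members with the stretch it fell after base 10, and in 19 of 20 family 4 members after base 17, *Cyp4v3* being the exception. Including that intron, the stretch lies at chr7:26201223-26210122 in *Cyp2b9*, chr7:25917420-25926087 in *Cyp2b10*, chr15:82456466-82456595 in *Cyp2d9* and chr7:27132606-27133235 in *Cyp2f2*, all on the plus strand. In family 4 it lies at chr4:115529502-115532543 in *Cyp4a10* and chr4:115328986-115331846 in *Cyp4a12a* on the plus strand, and at chr4:115487299-115489805 in *Cyp4a14* on the minus strand. The cysteine codon was TGC in 34 members and TGT in 13.

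Most members lie in a few gene clusters. Chromosome 4 holds 18, with the Cyp2j genes at 96027534-96664154 and the Cyp4a genes, *Cyp4b1* and *Cyp4x1* at 115106323-115647723. Chromosome 7 holds 10, with the Cyp2b genes, *Cyp2f2*, *Cyp2g1*, *Cyp2s1* and *Cyp2t4* at 25802475-27158668 and *Cyp2r1* apart at 114549682-114562972. Chromosome 15 holds the 8 Cyp2d genes and chromosome 17 holds 8 of the 9 Cyp4f genes. Neighbours in a cluster are often near copies, which bears on how reads could be assigned. The coding sequences of *Cyp4a12a* and *Cyp4a12b*, both of 1527 bases, differed at 23 bases (98.5% identical), and those of *Cyp2b9* and *Cyp2b13*, both of 1476 bases, at 108 (92.7% identical). The 60 coding bases of each pair with most differences are given with the differing bases in capitals.
Cyp4a12a: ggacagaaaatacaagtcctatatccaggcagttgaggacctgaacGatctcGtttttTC
Cyp4a12b: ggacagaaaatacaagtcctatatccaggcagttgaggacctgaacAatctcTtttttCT
Cyp2b9: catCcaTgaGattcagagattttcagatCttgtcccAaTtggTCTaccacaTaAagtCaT
Cyp2b13: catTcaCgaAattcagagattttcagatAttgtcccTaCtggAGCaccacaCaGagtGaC
The *Cyp2b9* window lies within 1 exon at chr7:26200824-26200883 and holds 13 differences, whereas the most varied window of the *Cyp4a12* pair holds 4. The authors kept uniquely mapped reads, so a read that mapped equally well to several genes was not counted. The shares below are of reference transcripts and take no account of read length or of a mate read. Of all stretches of 100 bases in a *Cyp4a12a* transcript, 35.8% also occurred in *Cyp4a12b*, and 36.2% of those of *Cyp4a12b* occurred in *Cyp4a12a*. The share was 20.1% for *Cyp4a32*, 14.8% for *Cyp2d10* and 12.7% for *Cyp4a10*. Of the 28 tested members, 12 shared no such stretch with another gene, among them *Cyp2b10*, *Cyp2f2*, *Cyp2j5*, *Cyp4a14*, *Cyp4f14* and *Cyp4f15*, and *Cyp2b9* shared 1.2%. The levels of *Cyp4a12a*, *Cyp4a12b*, *Cyp4a10*, *Cyp4a31*, *Cyp4a32*, *Cyp2d9*, *Cyp2d10* and *Cyp2d11* may therefore be uncertain, by an amount that was not tested.

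**Figure D1:**
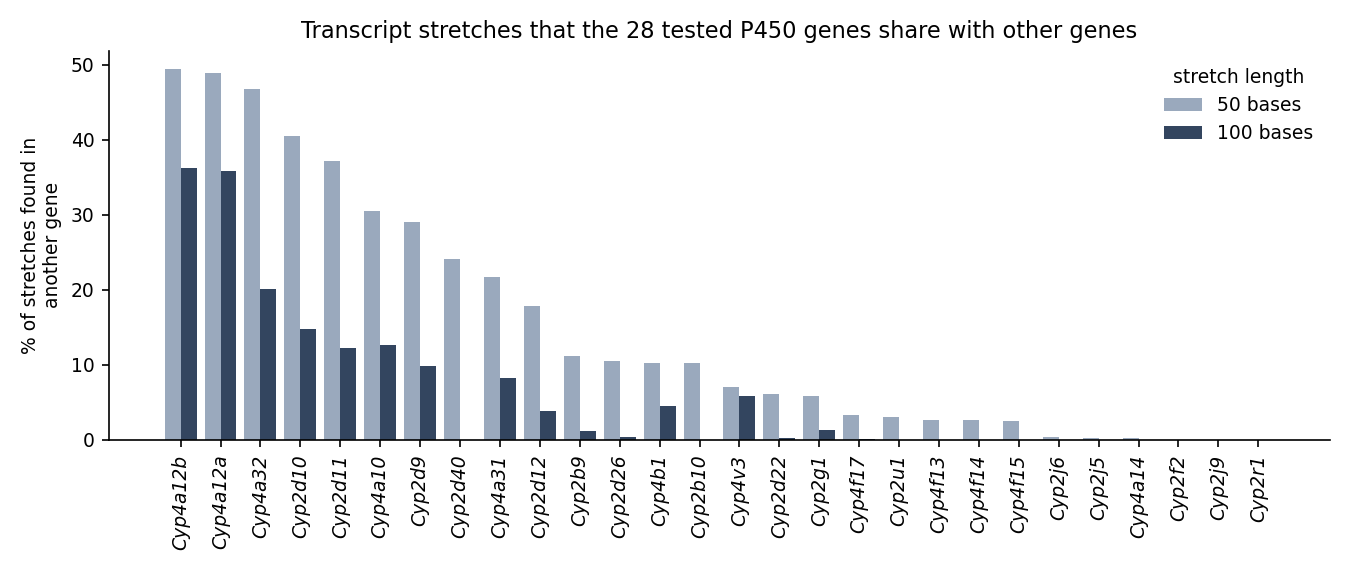
Share of the transcript stretches of each tested P450 gene that also occur in a transcript of another gene, in % of its stretches of 50 bases (light bars) and 100 bases (dark bars), from GENCODE transcripts. *Cyp4a12a* and *Cyp4a12b* stand highest at 100 bases (35.8% and 36.2%), and 12 of the 28 genes are at 0 there.

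The liver of vehicle mice expressed *Cyp2f2*, *Cyp2d9*, *Cyp2d26* and *Cyp2d10* most strongly among the members. Levels between genes were compared per length, as RPKM, the library-scaled read count divided by the gene's length in kilobases. *Cyp2f2*, an epoxidase of small aromatic compounds that is known from periportal hepatocytes and airway club cells, stood at 889 RPKM. It was followed by *Cyp2d9* (585), *Cyp2d26* (581) and *Cyp2d10* (482), and then by *Cyp2j5* (273), an arachidonic acid epoxygenase, and *Cyp4a12a* (232), the 20-HETE-forming hydroxylase. *Cyp2d9* and *Cyp2d26* could not be ordered in RPKM, since *Cyp2d9* was the higher in 5 of 14 mice. The gene length used was 2658 bases for *Cyp2d9* and 1792 bases for *Cyp2d26*. Their GENCODE transcripts were more alike, with 1663 and 1651 stretches of 50 bases. In CPM, *Cyp2d9* was the higher in every mouse (1224–2047 against 908–1257 CPM in vehicle mice). The order of genes in RPKM therefore depends on the length used, which was not varied. *Cyp2d10* stood above *Cyp2j5* in all 14 mice.
A middle group consisted of *Cyp4f14* (119 RPKM), *Cyp4v3* (108), *Cyp4a10* (100), *Cyp4f15* (87.8) and *Cyp2d22* (69.6), of which each of the first 3 overlapped with the next in its range over vehicle mice. *Cyp4f14* and *Cyp4f15* are leukotriene and long-chain fatty acid hydroxylases, and *Cyp4v3* is the mouse counterpart of a fatty acid hydroxylase mutated in a human retinal disease. *Cyp2b9* (25 RPKM), *Cyp4a14* (21.1) and *Cyp2b10* (9.96) were lower, and *Cyp2d12*, at 0.247, was the lowest of the tested members. The 48 members together held 0.759–0.876% of the counted reads in vehicle mice and 0.761–0.881% in indole mice, with medians of 0.839% and 0.846% (exact permutation test, two-sided, *p*=0.495).

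**Figure D2:**
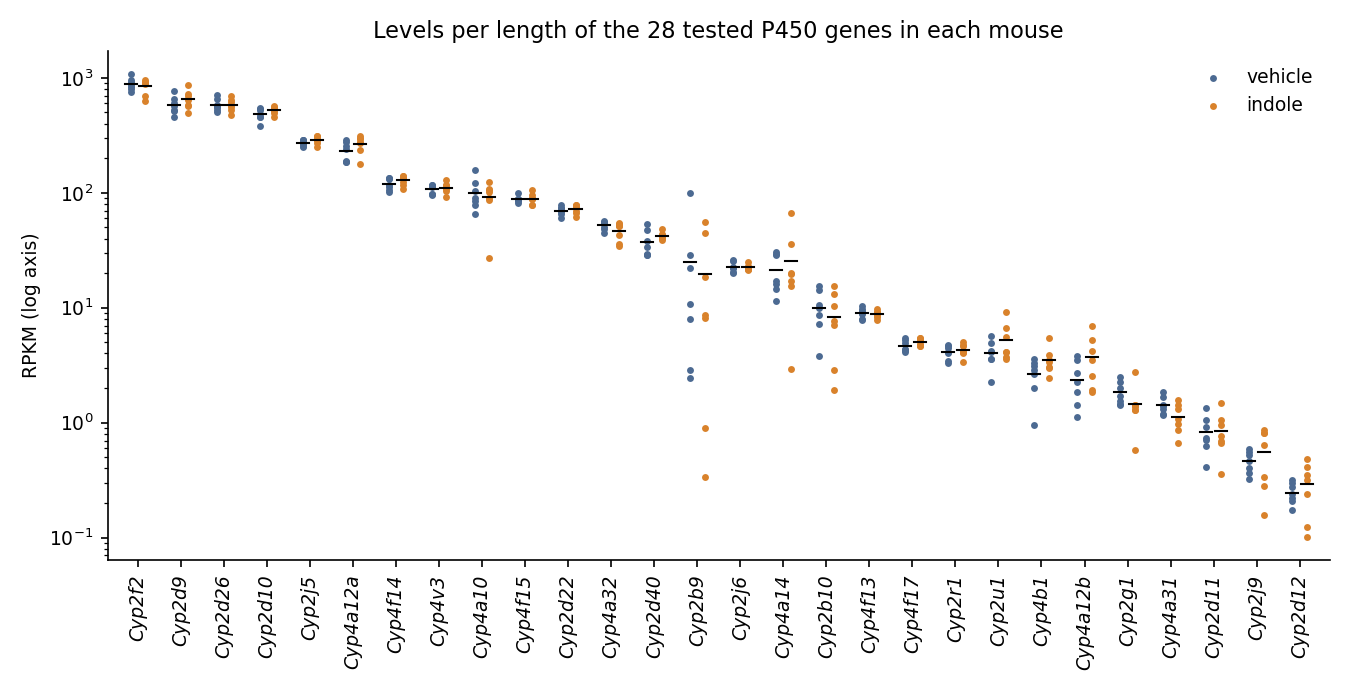
Level per length of each of the 28 tested P450 genes in each mouse, in RPKM on a log axis. Blue points are the 7 vehicle mice, orange points the 7 indole mice and black lines the group means. The points of both groups overlap for every gene, and those of *Cyp2b9*, *Cyp4a14* and *Cyp2b10* are the most spread.

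The genes without a read were *Cyp2b19*, *Cyp2b23*, *Cyp2j7*, *Cyp2j11*, *Cyp2j12*, *Cyp2j13*, *Cyp2w1*, *Cyp4a29* and *Cyp4x1*. They include 2 of 5 Cyp2b genes and 4 of 8 Cyp2j genes, and several are known from skin, kidney, gut or brain. At these depths a count of 0 allows up to 3 reads per mouse, which covers counting error only. The 11 genes with reads but too few to be tested were *Cyp2b13* (181 reads over the 14 mice), *Cyp2s1* (131), *Cyp4f16* (46), *Cyp4f39* (40), *Cyp4f18* (18), *Cyp4f37* (14), *Cyp2j8* (12), *Cyp4a30b* (10), *Cyp4f40* (8), *Cyp2d34* (6) and *Cyp2t4* (4).

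No tested member passed the test between indole and vehicle. With edgeR, 0 of 28 had an unadjusted *p* below 0.05 against 3.81% of the 12653 genes tested (1.53% higher and 2.28% lower with indole), and 0 had an adjusted *p* below 0.05, as did 0% of all genes. The smallest unadjusted *p* of a member was 0.0752, and the adjusted *p* of every member was at least 0.998. With DESeq2 on the same genes, 0 of 28 had an unadjusted *p* below 0.05, beside 532 of all 12653 genes. The groups of 7 overlapped for all 28, and did not overlap for 0.0474% of all genes. The log2 fold changes of the members ranged from −0.35 to 0.65 with a median of 0.059, beside 0.004 over all genes. They were above 0 for 19 members (67.9%) and below 0 for 9, whereas 51.3% of all genes were above 0. The 95% intervals lay within 0.5 of 0 on the log2 scale for 16 members and within 1 for 24, and those of *Cyp2b9*, *Cyp2b10*, *Cyp4a14* and *Cyp4a12b* reached beyond 1. In bulk liver, fewer cells that express a gene and less RNA per cell cannot be told apart.

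**Figure D3:**
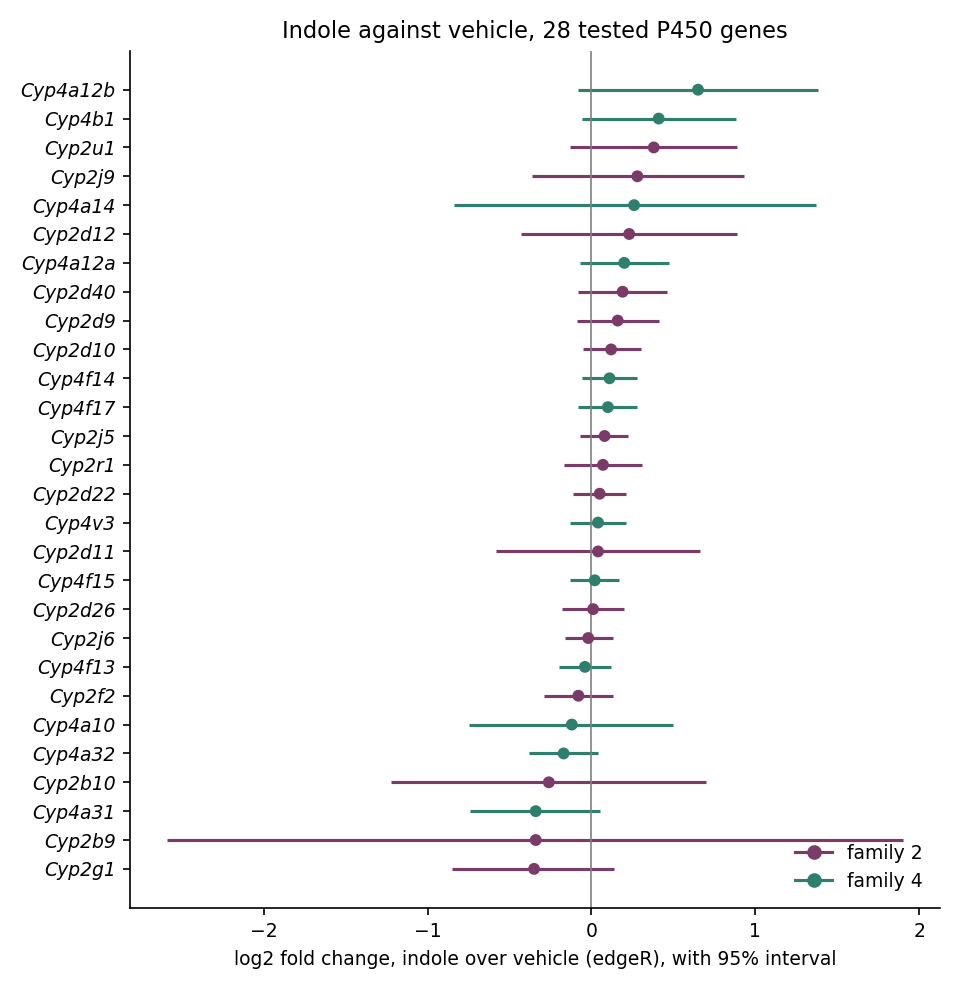
Log2 fold change of indole over vehicle (edgeR) for the 28 tested P450 genes, with the 95% interval as a line. Purple marks family 2 and green family 4. Every interval crosses 0, and those of *Cyp2b9* (−2.59 to 1.90), *Cyp4a14* and *Cyp2b10* are the widest.

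The Cyp2d genes, relatives of the human debrisoquine hydroxylase, had log2 fold changes near or slightly above 0. Levels within a gene are given as TMM-normalised read counts (CPM). *Cyp2d9*, a steroid 16α-hydroxylase, stood at 1224, 1496 and 2047 CPM (lowest, median and highest) in vehicle mice and at 1305, 1707 and 2284 CPM in indole mice, a log2 fold change of 0.16 (SE 0.121, edgeR *p*=0.207, exact permutation *p*=0.273), which was 0.08 without G2 and 0.24 without G10. *Cyp2d10* stood at 630, 791 and 893 CPM against 744, 893 and 939 CPM (0.12, edgeR *p*=0.157, exact permutation *p*=0.135). All 7 tested Cyp2d genes had a log2 fold change above 0, as did 51.3% of all genes. The Cyp2d values lay between 0.01 for *Cyp2d26* and 0.23 for *Cyp2d12*, and none passed the test. Of the 2 Cyp2d pairs compared across mice, *Cyp2d9* had r=0.52 with *Cyp2d10* and r=−0.23 with *Cyp2d26*.

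The Cyp4a genes, fatty acid ω-hydroxylases, lay on both sides of vehicle. *Cyp4a12b* had the highest log2 fold change of the members, with 2.71, 5.44 and 9.03 CPM in vehicle mice and 4.39, 8.49 and 16.5 CPM in indole mice (0.65, SE 0.34, edgeR *p*=0.0752, exact permutation *p*=0.119). The groups overlapped, with 5 of 7 indole mice above the vehicle median. Its near copy *Cyp4a12a*, which is far more abundant, stood at 452, 584 and 695 CPM against 429, 672 and 756 CPM (0.20, SE 0.129, edgeR *p*=0.131, exact permutation *p*=0.191).
*Cyp4a32* stood at 68.1, 83.7 and 87.2 CPM in vehicle mice and at 53.4, 78.8 and 83.6 CPM in indole mice (−0.17, SE 0.101, edgeR *p*=0.105, exact permutation *p*=0.136), and none of the 7 indole mice exceeded the vehicle median. *Cyp4a31* stood at 2.91, 3.5 and 4.68 CPM against 1.68, 2.68 and 3.96 CPM (−0.34, SE 0.19, edgeR *p*=0.0871, exact permutation *p*=0.0723). The PPARA-responsive *Cyp4a10* stood at 137, 191 and 332 CPM against 56.6, 213 and 263 CPM (−0.12, edgeR *p*=0.672, exact permutation *p*=0.662). The likewise responsive *Cyp4a14* stood at 29.8, 44.3 and 80.1 CPM against 7.62, 51.2 and 172 CPM (0.26, edgeR *p*=0.614, exact permutation *p*=0.864). In mean log2 CPM, which the permutation test compares, *Cyp4a14* differed by −0.10, opposite in sign to its edgeR value. For both, indole mouse G2 was the lowest of all 14. The log2 fold change of *Cyp4a10* was 0.04 without G2 and 0.02 without G6, its highest mouse, and that of *Cyp4a14* was −0.19 without G14 and 0.46 without G2.

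Among the other members, *Cyp4b1* and *Cyp2u1* were the next highest and *Cyp2g1* the lowest. *Cyp4b1*, an ω-hydroxylase known mainly from lung, stood at 2.17, 6.48 and 8.06 CPM in vehicle mice and at 5.52, 7.64 and 12.3 CPM in indole mice (0.41, SE 0.224, edgeR *p*=0.0834, exact permutation *p*=0.101). *Cyp2u1*, a fatty acid hydroxylase of brain and thymus, stood at 11.9, 21.6 and 29.8 CPM against 18.8, 21.7 and 48 CPM (0.38, SE 0.237, edgeR *p*=0.128, exact permutation *p*=0.182). Group medians of *Cyp2u1* were nearly equal, and without G2 its log2 fold change was 0.2.
*Cyp2g1*, an olfactory steroid hydroxylase, stood at 3.05, 3.68 and 5.32 CPM against 1.24, 2.95 and 5.92 CPM (−0.35, SE 0.237, edgeR *p*=0.152, exact permutation *p*=0.13). Mouse G8 of the indole group held its highest value, and without G8 the log2 fold change was −0.58, which was below 0.05 unadjusted but not adjusted (edgeR, adjusted *p*=0.999). Without G12, the lowest, it was −0.21 and did not pass. G8 also stood apart in interferon-induced genes, with *Iigp1* at 960 CPM against 113–156 CPM in the other 6 indole mice, and the part of this in the *Cyp2g1* value was not tested. The abundant *Cyp2f2* (1526, 1766 and 2189 CPM against 1270, 1814 and 1933 CPM) and *Cyp2j5* (592, 639 and 679 CPM against 586, 673 and 728 CPM) had log2 fold changes of −0.08 (95% interval −0.29 to 0.13) and 0.08 (−0.07 to 0.22). *Cyp2r1*, a vitamin D 25-hydroxylase, *Cyp4v3*, *Cyp4f14* and *Cyp4f15* lay between 0.02 and 0.11, with edgeR *p* between 0.203 and 0.771.

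*Cyp2s1*, a P450 of epithelial tissues that is known as a target of the aryl hydrocarbon receptor, had too few reads to enter the test. Vehicle mice had 8–21 reads each and indole mice 0–10, with sums of 92 and 39. The groups overlapped, and 4 of 7 indole mice lay below every vehicle mouse. With DESeq2 on all 22535 genes with a read the log2 fold change was −1.13 (SE 0.46, adjusted *p*=0.996), in a fit in which 3.19% of all genes had an unadjusted *p* below 0.05. With edgeR without the filter it was −1.12 (adjusted *p*=0.717), and there 5.93% of genes had one. Its unadjusted *p* was below 0.05 in both fits and 0.00524 in the exact permutation test, and its adjusted *p* was not. With 1 mouse left out, *Cyp2s1* passed the edgeR filter without G1, G2, G5, G7, G8, G10, G12 or G14. It did not pass the filter without G3, G4, G6, G9, G11 or G13. No such fit therefore left out G13, G11 or G4, the vehicle mice with most *Cyp2s1* reads (21, 17 and 14). In the fits that the filter allowed, its log2 fold change ran from −1.30 to −0.89. Its edgeR *p* was below 0.05 unadjusted in each of these fits and in none adjusted. The unadjusted count over all genes was 408 of 12791 (without G5) to 620 of 12771 (without G12) there.

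*Cyp2b9* differed far more between mice than between groups. In vehicle mice it stood at 188 CPM in G11, 53.8 in G6, 41.8 in G4, 20.1 in G1, 15.1 in G10, 5.42 in G9 and 4.59 in G13. In indole mice it stood at 105 CPM in G3, 83.8 in G7, 35 in G8, 16.3 in G5, 15.3 in G14, 1.69 in G12 and 0.63 in G2. The highest mouse was 297-fold above the lowest, and both groups held high and low mice. The log2 fold change was −0.34 with an SE of 1.03 (edgeR *p*=0.745, exact permutation *p*=0.573), and it was 0.67 without G11 and −0.88 without G3. The SD of log2 CPM within groups was 2.33 for *Cyp2b9*, which ranked 6 among 12653 genes, 1.05 for *Cyp4a14* (rank 104) and 0.917 for *Cyp2b10* (rank 199). The median was 0.262 over the 28 members and 0.238 over all genes, with 15 members above the latter.

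*Cyp2b10* varied with *Cyp2b9*. It stood at 8.05, 21.2 and 32.6 CPM in vehicle mice and at 4.1, 16.1 and 32.8 CPM in indole mice, and was lowest in G2 and G12, where *Cyp2b9* was lowest as well. The log2 fold change of *Cyp2b10* was −0.26 (SE 0.442, edgeR *p*=0.57, exact permutation *p*=0.378), and ranged from −0.08 without G2 to −0.48 without G8. *Cyp2b13* was counted 62 times in G3 and 57 times in G11, the highest mice of their groups for *Cyp2b9*, and at most 15 times in any of the others. Across the 14 mice, log2 CPM of *Cyp2b9* and *Cyp2b10* were correlated with Pearson's r=0.82 (permutation *p*=0.00047, adjusted over 11 pairs *p*=0.00401) and Spearman's rho=0.67 (permutation *p*=0.0102). The correlation was 0.79 within vehicle mice, 0.82 within indole mice and 0.67 without the mice farthest from the median, G11 and G2 (permutation *p*=0.0176).

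Genes with a known sex bias varied along with *Cyp2b9* in these male livers. *Cyp2b9* was taken as the reference for this comparison after its spread had been seen, and 20 genes of the female-biased and male-biased lists were compared with it. All 11 tested male-biased genes were negatively correlated with it (r from −0.93 to −0.31, median −0.81), 10 of them with an adjusted permutation *p* below 0.05. All 9 tested female-biased genes had a positive r (0.05 to 0.91, median 0.74), 7 of them with an adjusted *p* below 0.05. Without G11 and G2, *Fmo2* (r=0.53), *Cux2* (0.49) and *Cyp17a1* (0.18) no longer passed the permutation test, *Cyp3a44* was at −0.50 and *Cyp3a16* at −0.02. Of the male-biased genes, *Nudt7* (−0.57) no longer passed it and *Susd4* was at −0.06. Over all 12652 other genes the central 95% of r ran from −0.55 to 0.55, and 0.237% were at −0.8 or below and 0.134% at 0.8 or above.
*Mup20*, the male pheromone darcin, was the closest of the male-biased genes, with r=−0.93 (permutation *p*=1e-05, the smallest that these resamples can give, adjusted *p*=0.0002) and rho=−0.94 (permutation *p*=2e-05). Its r was −0.92 within vehicle mice, −0.93 within indole mice and −0.92 without G11 and G2. *Cyp2a4*, a female-biased steroid hydroxylase, had r=0.91 (permutation *p*=2e-05, adjusted *p*=0.0002) and rho=0.87 (permutation *p*=0.0001), with r=0.82 without G11 and G2. *Mup20* stood at 858 and 891 CPM in G2 and G12, the lowest mice for *Cyp2b9*, and at 205 and 211 CPM in G3 and G11, the highest.

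The 3 male-biased members each had a negative r with *Cyp2b9*. *Cyp4a12b* had r=−0.85 with it (permutation *p*=0.00016, adjusted over 3 pairs *p*=0.00048, rho=−0.84 with permutation *p*=0.00037), and r was −0.81 within vehicle mice, −0.92 within indole mice and −0.78 without G11 and G2. *Cyp2d9* had r=−0.75 (permutation *p*=0.00202, adjusted *p*=0.00303, rho=−0.76 with permutation *p*=0.00271), with −0.44 within vehicle mice and −0.95 within indole mice. *Cyp4a12a* had r=−0.50, which did not pass (permutation *p*=0.0725), and rho=−0.60 (permutation *p*=0.0273). Its r was −0.34 within vehicle mice and −0.41 without G11 and G2. Of all 27 other tested members, 15 had a negative and 12 a positive r with *Cyp2b9*, with *Cyp4a12b* at one end and *Cyp2b10* (0.82), *Cyp4a10* (0.67) and *Cyp2d26* (0.60) at the other. The vehicle mouse with most *Cyp2b9*, G11, was also the one with most *Saa1*, an acute-phase gene, at 2050 CPM against 23.3–480 CPM in the other 6 vehicle mice. The part of this in the *Cyp2b9* level was not tested, and without G11 and G8, the mouse that stood apart in interferon-induced genes, the r of *Cyp2b9* was −0.91 with *Mup20* and −0.81 with *Cyp4a12b*.

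**Figure D4:**
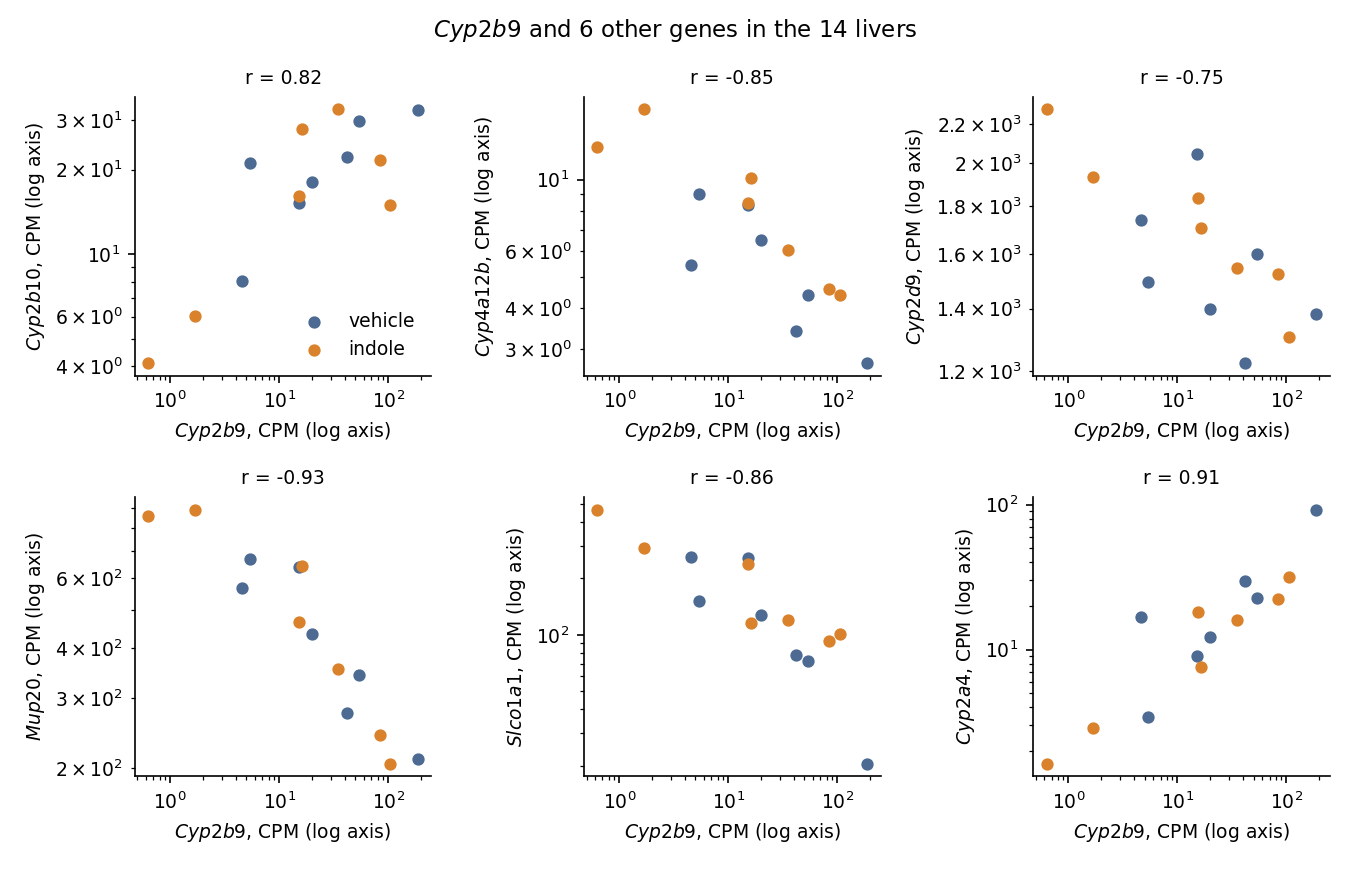
Level of *Cyp2b9* (x axis) and of 6 other genes (y axes) in each of the 14 mice, in CPM on log axes, with blue points for vehicle and orange points for indole. *Cyp2b10* and *Cyp2a4* increase with *Cyp2b9* (r=0.82 and 0.91), whereas *Cyp4a12b*, *Cyp2d9*, *Mup20* and *Slco1a1* decrease (r=−0.85, −0.75, −0.93 and −0.86), and both groups lie along the same course.

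**Figure D5:**
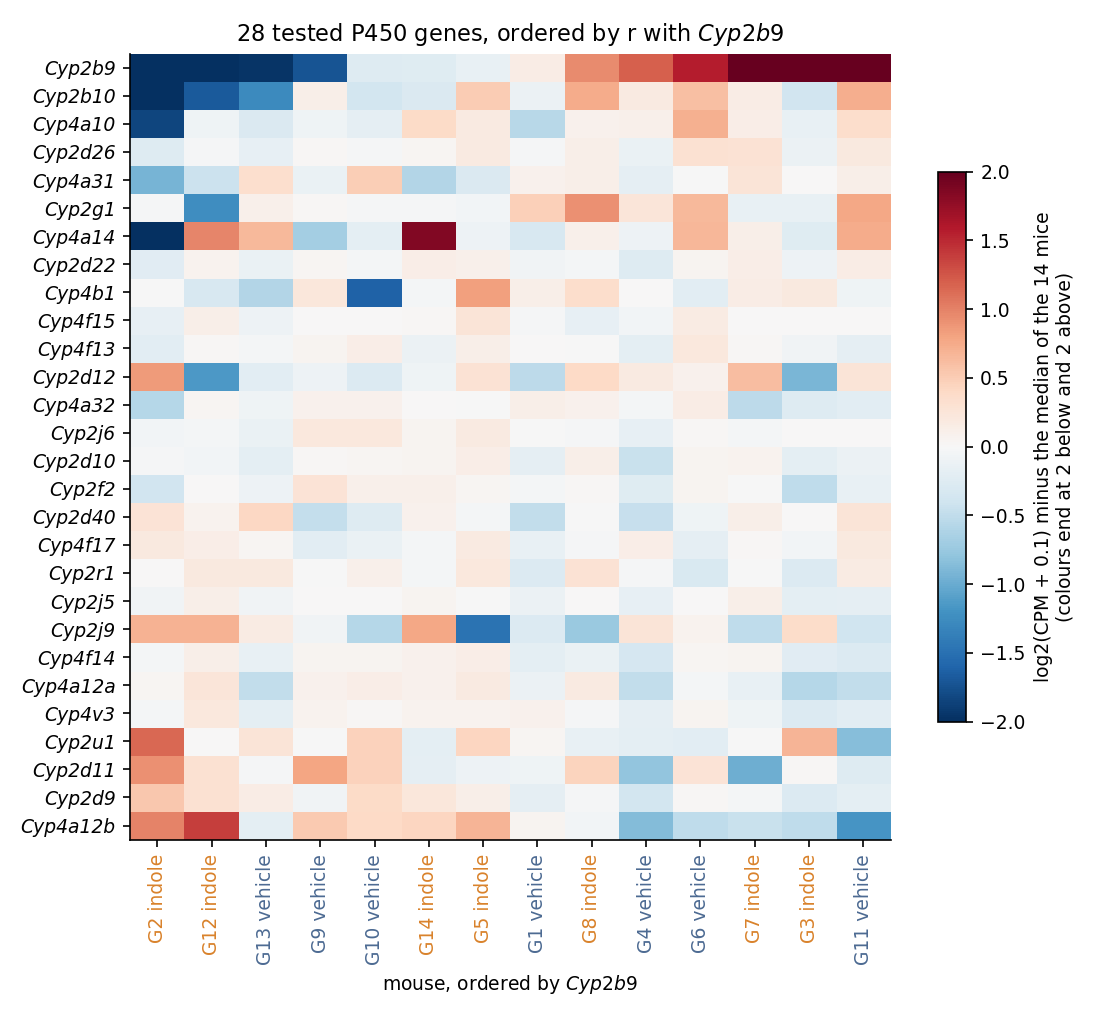
Level of the 28 tested P450 genes (rows, ordered by r with *Cyp2b9*) in the 14 mice (columns, ordered by *Cyp2b9*), as log2(CPM + 0.1) minus the gene's median over the mice. Red is above and blue below the median, and colours end at 2 either way. *Cyp2b9* and *Cyp2b10* turn from blue to red from left to right and *Cyp4a12b* from red to blue, while most rows stay pale.

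Near copies, genes with shared known regulation and some other members were compared over 11 pairs, chosen with earlier results of these data known. *Cyp2j5*–*Cyp2d9* and *Cyp2f2*–*Cyp2d22*, with 54.4% and 55.8% identical coding bases, are not near copies. *Cyp4a12a* and *Cyp4a12b* were correlated with r=0.79 (permutation *p*=0.00073, adjusted *p*=0.00401) and rho=0.82 (permutation *p*=0.00052), and r was 0.80 within vehicle mice, 0.73 within indole mice and 0.74 without G11 and G3. The part of their shared stretches in this correlation was not tested. *Cyp4a10* and *Cyp4a14*, which share no stretch of 100 bases, had r=0.82 (permutation *p*=0.00354, adjusted *p*=0.013) and rho=0.64 (permutation *p*=0.0156). Without G2 and G6 r was 0.49 (permutation *p*=0.105), and within vehicle mice it was 0.55.
*Cyp4a12a* and *Cyp2d9*, both male-biased, had r=0.63 (permutation *p*=0.0163, adjusted *p*=0.0449) and rho=0.64 (permutation *p*=0.0159). *Cyp2f2* and *Cyp2d22* had r=0.60 (permutation *p*=0.0224, adjusted *p*=0.0493) and rho=0.47 (permutation *p*=0.0931). Without the 2 mice farthest from the median the former was 0.50 and the latter 0.46, both above 0.05 in the permutation test with 12 mice. The other 6 pairs had an adjusted *p* of at least 0.081, among them *Cyp4a10* with its near copies *Cyp4a31* (r=0.41) and *Cyp4a32* (r=0.49), and *Cyp2d9* with *Cyp2d10* (r=0.52) and *Cyp2d26* (r=−0.23).

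*Cyp2b10* varied with some of the other known targets of CAR and of the pregnane X receptor. Of 20 tested targets outside the members, 17 had a positive r with *Cyp2b10* (median 0.53) and 7 an adjusted permutation *p* below 0.05. The 3 with a negative r were *Abcc2* (−0.48), *Ces2c* (−0.26) and *Cyp2c29* (−0.16). The closest were *Cyp2c37* (r=0.86, permutation *p*=0.00015, adjusted *p*=0.0015, rho=0.81 with permutation *p*=0.00076) and the transporter gene *Slco1a4* (r=0.86, permutation *p*=0.00014, adjusted *p*=0.0015, rho=0.80 with permutation *p*=0.00081). Without G12 and G2 they stood at 0.88 and 0.75, whereas *Ugt1a1* fell from 0.75 to 0.42 (permutation *p*=0.177). Of the 12652 other genes, 6233 had a positive r with *Cyp2b10*, 1.38% an r of 0.7 or above and 0.292% of 0.8 or above. The central range of r over these genes, taken as for *Cyp2b9*, ran from −0.64 to 0.65. Of the 7 targets, *Cyp2c54* (r=0.62) lay within this range. *Cyp4a14*, compared in the same way with 26 targets of PPARA, had a positive r with 21 (median 0.31), and 0 had an adjusted permutation *p* below 0.05. Of the 12652 other genes, 6162 had a positive r with *Cyp4a14*, and the central range of r ran from −0.52 to 0.57.

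The genes that serve these enzymes differed little between groups. All 6 genes of electron supply and haem synthesis were tested, among them *Por*, the P450 oxidoreductase, and 0 had an unadjusted edgeR *p* below 0.05 (4 higher and 2 lower, median log2 fold change 0.07). *Por* stood at 501±87.2 CPM in vehicle mice and 492±73.6 CPM in indole mice (SD, n=7 each, edgeR adjusted *p*=0.998). Of 8 genes for the steps after epoxidation and ω-hydroxylation, 7 were higher and 1 lower, with 0 below 0.05. Of 19 regulators, including *Ppara* and the CAR gene *Nr1i3*, 16 were lower and 3 higher (median −0.08), again with 0 below 0.05. *Ppara* had a log2 fold change of −0.22 (SE 0.192) and *Nr1i3* of −0.01 (SE 0.246).
All 11 tested male-biased genes were higher with indole (median 0.34) and all 9 female-biased genes lower (median −0.08), with 0 below 0.05 in either list. Of these 20, 17 were correlated with *Cyp2b9* across the 14 mice, and *Cyp3a44*, *Cyp3a16* and *Susd4* were not at an adjusted *p* below 0.05. Among targets of CAR and the pregnane X receptor, *Cyp2c29* was below 0.05 unadjusted (log2 fold change 0.41, SE 0.0878, edgeR adjusted *p*=0.998), and the other 19 tested were not. Among PPARA targets, *Acaa1b* (0.27) and *Cpt1a* (−0.16) were, with an edgeR adjusted *p* of 0.998 each.

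Markers of other cell types were low beside those of hepatocytes. The 9 hepatocyte markers summed to 77345–98044 CPM in vehicle mice and 69094–104661 CPM in indole mice, and *Alb* alone to 64641±6340 and 64901±10194 CPM (SD, n=7 each). The 10 Kupffer cell markers summed to 107–279 and 125–518 CPM, the 6 sinusoidal endothelial markers to 59.8–104 and 73.3–130 CPM, the 5 stellate cell markers to 212–257 and 146–308 CPM, the 5 bile duct markers to 33.1–46.6 and 27.5–45.1 CPM, and the 5 T and NK cell markers, with *Cd8a* at a median of 0 reads, to 0.8–2.42 and 0.937–5.45 CPM. The 5 erythroid markers stood at 204–384 CPM in vehicle and 263–1092 CPM in indole mice, and all 5 had an unadjusted edgeR *p* below 0.05 (median log2 fold change 1.07, adjusted *p*=0.998). Bile duct markers were lower in 5 of 5 (*Krt19* −0.94) and endothelial markers higher in 6 of 6 (*Clec4g* 0.37), and those 2 named genes and *Col1a1* of the stellate list (−0.67) were below 0.05 unadjusted, with an edgeR adjusted *p* of 0.998. Kupffer cell markers were higher in 9 of 10 and 0 were below 0.05. Acute-phase genes were lower in 10 of 10 (median −0.24), with *Saa1* and *Saa2* below 0.05. The part of these in the member values was not tested.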

How the data were processed

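The authors aligned strand-specific polyA reads with HISAT2 to GRCm38 (Ensembl annotation) and deposited raw counts of uniquely mapped reads per gene. The counting tool is not given in the sources used here. Groups of 7 mice came from the sample labels, which give no batch or pairing. All 14 columns were used.

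Counts were tested with edgeR 4.0.16 in R 4.3.3 (TMM, filterByExpr, robust quasi-likelihood, Benjamini–Hochberg over 12653 genes). CPM are TMM-normalised, RPKM are CPM per kilobase of the table's gene length, and log2 CPM used a prior count of 2. Single genes and shares were compared by exact permutation (3432 relabellings), and correlations with 100000 resamples over 14 mice, exactly within groups. The script was checked on simulated counts.

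Members, lists and pairs were chosen with earlier results of these data known. Named members were the highest per length in each subfamily, the 3 largest log2 fold changes each way, the 3 largest SDs and the paired genes. Other members were named after their values were seen. The fit was repeated with DESeq2 1.42.0 (once on these genes, once on any gene with a read), limma voom 3.58.1 with sample weights, RLE or upper quartile scaling, other filters, no robust step, 1 surrogate variable (sva 3.50.0) and fewer mice. The 95% intervals are those of the edgeR fit and include the spread between mice, whereas the floor of 3 reads covers counting error only. Pseudogene rows were not tested as members.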

Additional observations from a re-analysis of the deposited data

Results flagged for a closer look

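In 4 of 46 groups of 7 checked among the named members, 1 mouse stood far from the others. A rate of 1 in 20 groups would give 2.3 of 46. Whether that rate holds for CPM, which are not log-transformed, was not tested. The gap to the nearest mouse, as a share of the group's range of CPM, was 0.731 for *Cyp2b9* in vehicle mouse G11 (the highest), 0.614 for *Cyp2g1* in indole mouse G8 (the highest), 0.608 for *Cyp4a10* in indole mouse G2 (the lowest) and 0.606 for *Cyp4f15* in vehicle mouse G6 (the highest).

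Reads were also counted on pseudogenes of these families, which take no part in the comparisons. *Cyp2d37-ps* had 2771 reads over the 14 mice, *Cyp2d38-ps* 765, *Cyp4a30-ps* 137, *Cyp2d36-ps* 81 and *Cyp2d41-ps* 69, all above the 42 reads that 3 per mouse would give. *Cyp2d37-ps*, at chr15:82688750-82693148 (GRCm38), ranged from 60 to 331 reads in vehicle mice and from 58 to 655 in indole mice, with a log2 fold change of 0.45 (SE 0.596).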

How the results depend on the processing

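The count of members with an unadjusted *p* below 0.05 was 0 of 28 with edgeR. It was 1 of 39 (*Cyp2s1*) with DESeq2 on all genes with a read and with no filter, beside 3.19% and 5.93% of all genes. It was 1 of 28 with limma voom (*Cyp4a32*) and when the fit was not robust (*Cyp4a12b*), beside 564 and 498 of 12653 genes. It was 2 of 28 without G8 and G11 (*Cyp2g1* and *Cyp4a32*), beside 488 of 12670 genes. With 1 mouse left out it was 0–3 of 28 or 29 tested members. It reached 3 of 29 without G7 (*Cyp2s1*, *Cyp4a12b* and *Cyp4a31*), beside 460 of 12766 genes. It was also 3 of 29 without G8 (*Cyp2g1*, *Cyp2s1* and *Cyp4a32*), beside 531 of 12761 genes. No adjusted *p* of a member was below 0.05 under any alternative. Over all genes the count of 482 became 1336 with no filter and 386 (without G4) to 627 (without G6) with 1 mouse left out. Named members kept their direction except as follows. *Cyp2b9* was at 0.68 without G8 and G11 and −0.88 to 0.67 with 1 mouse left out, and *Cyp2d26* at −0.03 with 1 surrogate variable and −0.03 to 0.06 with 1 mouse left out. With 1 mouse left out *Cyp4a10* ranged from −0.21 to 0.04 (above 0 without G2 or G6), *Cyp4a14* from −0.19 to 0.46 and *Cyp4f15* from −0.02 to 0.05.

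Of the pair correlations, *Cyp4a10*–*Cyp4a14* was 0.55 within vehicle mice and 0.49 without the 2 mice farthest from the median. *Cyp4a10*–*Cyp4a31* was −0.34 and −0.42 under the same settings, *Cyp4a10*–*Cyp4a32* −0.13 and −0.31, and *Cyp2f2*–*Cyp2d22* 0.46 and 0.46. *Cyp4a12a*–*Cyp2d9* was 0.52 within vehicle mice, 0.65 within indole mice and 0.50 without the 2 mice. Without the 2 mice *Cyp2d9*–*Cyp2d10* was 0.59, *Cyp2d9*–*Cyp2d26* 0.15 and *Cyp4f14*–*Cyp4f15* 0.59, the last also 0.55 with RLE scaling. The cause was not tested. With 7 mice per group, the 95% interval of *Cyp2b9* ran from −2.59 to 1.90 on the log2 scale.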
